A study of Mus musculus with 12 samples.

Results

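Fibronectin, the CCN and other matricellular glycoproteins and the elastic fibre proteins were followed as 10 genes, Fn1, Tnc, Postn, Sparc, Thbs1, Thbs2, Ccn1, Ccn2, Eln and Fbn1, across mouse kidney RNA-seq libraries. The rule takes them by symbol and uses no measured value, though the list was drawn up with earlier results of these data known, and all 10 were found among the 18803 genes of the deposited table and among the 15322 genes with enough reads to be tested. The study crossed genotype with surgery in 4 groups of 3 libraries, 12 in all, from male mice 8 weeks old on a C57BL/6J background. WT mice carried floxed Wwp2 alleles (WWP2fl/fl) and PTCKO mice had a conditional Wwp2 knockout in the proximal tubule, so the controls were floxed mice without that knockout, after each operation, sham or UIR. The design lists 6 to 8 mice per group, without saying which mouse gave which library or whether animals were pooled. The labels do not spell out UIR, and which Cre line was used and how long after UIR the kidneys were taken are not stated by the labels. The series asks what Wwp2, a HECT-type ubiquitin ligase, does when acute injury brought on by UIR turns into chronic kidney disease.

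Matricellular proteins are secreted into the extracellular matrix, where they bind integrins, growth factors and structural fibres and tune how cells attach and signal rather than bearing load. Most are low in the resting adult kidney and are known to be made by activated fibroblasts, mural cells, injured epithelium and, for some, macrophages during repair and fibrosis. Many are transcribed in response to TGF-beta through SMAD factors or to mechanical tension through YAP and TEAD, and CCN proteins are textbook targets of both routes. Fibronectin and fibrillin lay down the fibrils on which collagen and elastin are assembled.

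Because these genes are known for those routes, the 250 bases before the transcription start were searched on both strands for the TEAD letters GGAATG, the SMAD letters CAGACA and the CArG box of SRF. RefSeq promoter windows of build GRCm38.p6 were matched for 6 of the 10 genes, Ccn1, Fbn1, Postn, Sparc, Thbs2 and Tnc, while Ccn2, Fn1, Thbs1 and Eln had none. The 3 windows below, each on the minus strand of the genome and written 5′ to 3′, show the member that held the TEAD letters and the members with SMAD letters and a single listed start. Capitals mark the letters as they read on the gene's strand, CATTCC for TEAD and TGTCTG for SMAD. The Ccn1 window is chr3:145649986-145650235, the Sparc window is chr11:55420081-55420330 and the Thbs2 window is chr17:14694263-14694512.
Ccn1: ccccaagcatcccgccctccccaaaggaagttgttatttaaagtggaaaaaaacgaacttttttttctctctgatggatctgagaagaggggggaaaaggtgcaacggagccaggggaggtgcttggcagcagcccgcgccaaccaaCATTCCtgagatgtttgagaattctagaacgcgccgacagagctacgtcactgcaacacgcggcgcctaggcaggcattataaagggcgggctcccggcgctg
Sparc: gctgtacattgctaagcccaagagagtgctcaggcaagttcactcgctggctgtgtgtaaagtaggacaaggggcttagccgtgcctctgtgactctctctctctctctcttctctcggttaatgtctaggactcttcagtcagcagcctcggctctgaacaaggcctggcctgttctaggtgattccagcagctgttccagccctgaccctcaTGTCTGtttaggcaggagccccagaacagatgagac
Thbs2: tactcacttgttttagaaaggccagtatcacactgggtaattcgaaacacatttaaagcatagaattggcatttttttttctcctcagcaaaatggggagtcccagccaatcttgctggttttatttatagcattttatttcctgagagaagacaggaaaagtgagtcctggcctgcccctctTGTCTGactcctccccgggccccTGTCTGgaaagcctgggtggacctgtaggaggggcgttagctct

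In Ccn1 the TEAD letters lay 103 to 98 bases before the start. Sparc held the SMAD letters 36 to 31 bases before the start, and Thbs2 held them at 67 to 62 and at 44 to 39 bases. Tnc also held the SMAD letters before its second listed start, at 71 to 66 bases, and neither the Postn nor the Fbn1 windows held any of the 3 motifs. None of the 6 genes had a CArG box. Among all 32851 windows of this length, 12.6% held the TEAD letters, 17.1% the SMAD letters and 1.47% a CArG box, so each 6-letter word is common by its length, and a match is a description of the sequence only.

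Total expected counts were 15495163 to 19645743 per library. The 10 genes together took a share of counts that went from 0.0322% ± 0.00802 after sham to 0.437% ± 0.0255 after UIR in WT and from 0.0363% ± 0.00257 to 0.295% ± 0.0392 in PTCKO (SD, n = 3). Wwp2, the targeted gene, measured 15.2, 15.7 and 17.1 FPKM after sham and 17.6, 19.2 and 17.9 after UIR in the WT libraries. In PTCKO it measured 15.6, 16.1 and 17.6 after sham and 22.3, 19.3 and 20.5 after UIR. The libraries labelled PTCKO did not have less of it, with a log2 fold change against WT of -0.03 after sham (edgeR adjusted p = 0.823) and 0.25 after UIR (adjusted p = 0.037). A count over the whole gene in whole kidney does not single out a deleted segment or the proximal tubule, so every direction between genotypes below rests on the labels. Mean TMM factors, edgeR's scaling for library composition, were 0.773 (WT) and 0.846 (PTCKO) after sham, and 1.27 (WT) and 1.21 (PTCKO) after UIR. FPKM carries no such factor, so its ratio of UIR to sham exceeds the edgeR fold change. For Wwp2 the direction itself differed, as FPKM was higher after UIR in each genotype whereas edgeR called it lower. Its edgeR log2 fold change with UIR was -0.56 in WT (adjusted p = 9.74e-06) and -0.28 in PTCKO (adjusted p = 0.00352). Library 2 of PTCKO UIR was the highest of its group for 7 of the 10 genes, and library 2 of WT sham for 9. In WT sham library 2 the 5 adipocyte markers summed to 13.0 FPKM, against 0 in the other 2 WT sham libraries, and the part of fat in its values was not tested.

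The levels of the 10 genes spanned a wide range, compared here as FPKM, which is per length. Sparc was highest and Postn lowest in every group. In WT sham, Sparc at 52.4 ± 10.9, Ccn1 at 39.3 ± 19.9 and Ccn2 at 34.6 ± 5.37 FPKM (SD, n = 3) overlapped as neighbours in the order. The other 7 genes were below 5 FPKM. In WT UIR the order was Sparc, Ccn2, Ccn1, Fn1, Eln, Thbs1, Tnc, Thbs2, Fbn1 and Postn, and only the neighbours Fn1 and Eln, and Thbs2 and Fbn1, overlapped. In PTCKO UIR, every neighbouring pair from Ccn2 down to Thbs2 overlapped, and Ccn2 and Ccn1 could not be ordered. After UIR the FPKM ratio of Ccn2 to Ccn1 was 1.68, 1.69 and 1.89 in the WT libraries against 0.99, 1.01 and 1.44 in those of PTCKO, without overlap. After sham it was 1.45, 0.66 and 0.89 against 0.70, 0.58 and 0.56, with overlap.

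**Figure D1:**
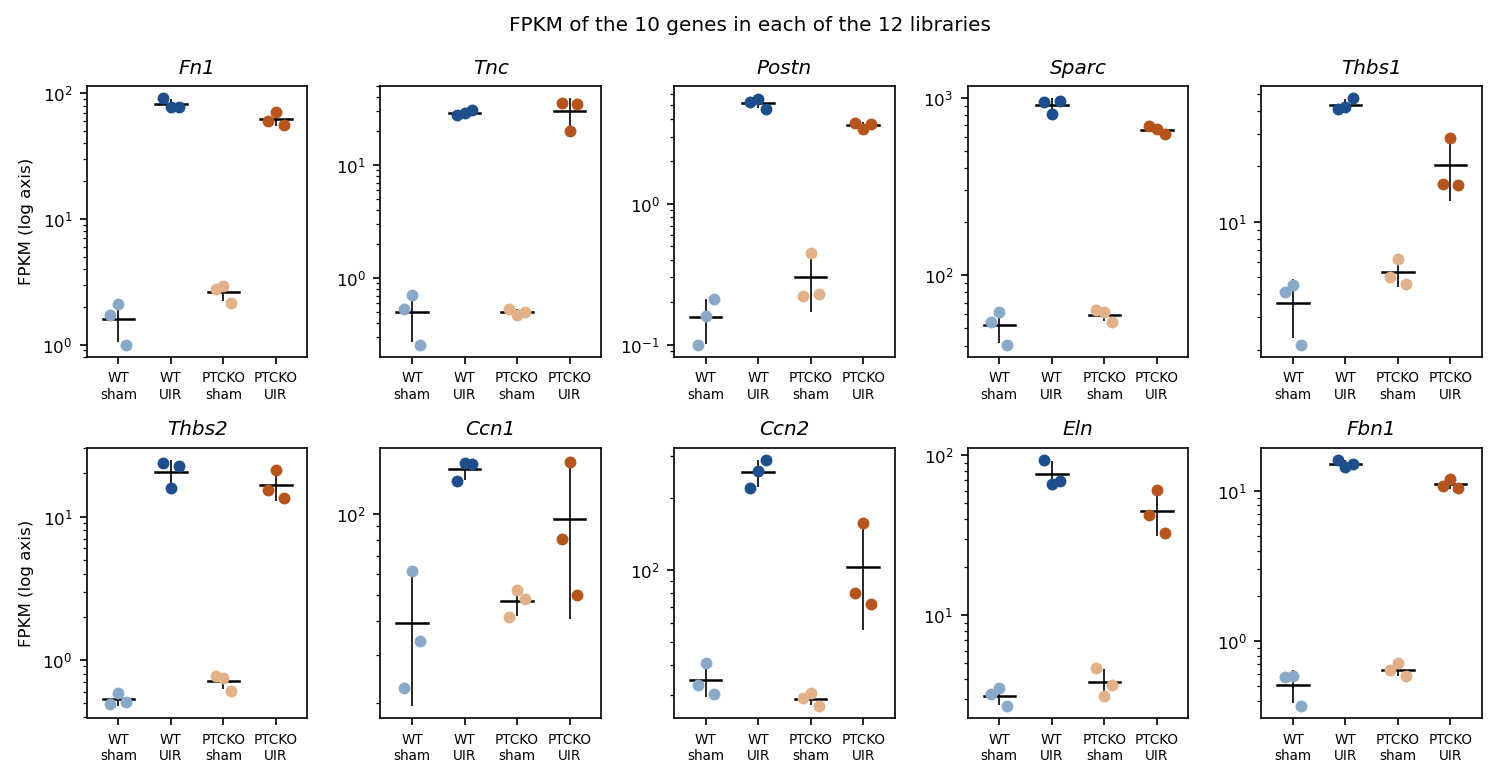
FPKM on a log axis of each gene in the 12 libraries, grouped by genotype and surgery; points are libraries, horizontal bars group means and vertical lines 1 SD. The UIR libraries lie above the sham libraries of the same genotype for every gene except Ccn1 in PTCKO, where 1 UIR library at 49.97 FPKM lies within the sham range.

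UIR against sham asks how the injury changed these genes within a genotype. In WT all 10 genes rose, from 2.29-fold for Ccn1 to 36.7-fold for Tnc, and in PTCKO 9 rose, with Ccn1 as the exception (edgeR quasi-likelihood test, adjusted p under 0.05). Their median log2 fold change was 4.02 in WT and 3.07 in PTCKO, against 0.11 and 0.06 over all genes tested. In WT 42.1% of all genes tested were called higher, 36.4% lower and 78.6% in either direction, and in PTCKO 39.0% higher, 34.8% lower and 73.8% in either direction, so being called is common here and the size of the change says more than the count. The UIR and sham FPKM values of the 10 genes did not overlap in WT, which held for 67.8% of all genes tested in the higher direction. In PTCKO they did not overlap for 9 of 10, against 62.3%. Every member's call in WT held under all 22 alternatives. Without TMM scaling the median of all genes moved to 0.82 in WT and 0.57 in PTCKO and the members' fold changes rose by about as much.

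Fn1 encodes fibronectin, the dimeric glycoprotein whose fibrils carry integrin and collagen binding sites (Entrez 14268, chromosome 1, 71585473 to 71653280, GRCm38.p6). In WT its FPKM went from 1.72, 2.10 and 1.00 after sham to 91.4, 78.0 and 77.4 after UIR. PTCKO libraries measured 2.77, 2.95 and 2.15 after sham and 60.8, 70.9 and 55.8 after UIR. Each UIR library was far above each sham library, and the 3 PTCKO UIR libraries lay below the 3 of WT UIR. The log2 fold change with UIR was 4.98 (SE 0.219, adjusted p = 3.2e-10) in WT and 4.05 (SE 0.209, adjusted p = 1.91e-09) in PTCKO.

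Tnc encodes tenascin-C, a large multi-armed glycoprotein that appears transiently in healing tissue (Entrez 21923, chromosome 4, 63959785 to 64047015). Its FPKM rose from 0.54, 0.71 and 0.26 to 27.7, 29.0 and 30.7 in WT. In PTCKO it rose from 0.54, 0.47 and 0.50 to 35.4, 19.8 and 34.9. These were the largest fold changes of the 10 genes, 5.197 on the log2 scale in WT (SE 0.280, adjusted p = 1.44e-09) and 5.35 in PTCKO (SE 0.281, adjusted p = 2.18e-09). The PTCKO UIR values straddled those of WT UIR, with library 2 low and the other 2 high.

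Postn encodes periostin, which binds collagen and integrins and promotes collagen cross-linking (Entrez 50706, chromosome 3, 54359267 to 54391041). It had the lowest level of the 10, at 0.10, 0.16 and 0.21 FPKM in WT sham, or 5 to 11 expected counts, against 5.28, 5.55 and 4.71 FPKM in WT UIR. PTCKO libraries measured 0.22, 0.45 and 0.23 FPKM after sham and 3.75, 3.42 and 3.66 after UIR. After UIR the PTCKO libraries lay below those of WT. After sham the FPKM values of PTCKO were higher, with 0.21 and 0.22 as the nearest values, while the counts met at 11 and the TMM-scaled CPM (counts scaled to a common library size) overlapped. The log2 fold change with UIR was 4.36 in WT (SE 0.254, adjusted p = 2.92e-09) and 3.10 in PTCKO (SE 0.233, adjusted p = 5.02e-08).

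Sparc encodes osteonectin, a calcium- and collagen-binding protein needed for collagen fibril assembly (Entrez 20692, chromosome 11, 55394159 to 55420080). WT libraries measured 54.6, 62.1 and 40.6 FPKM after sham and 947, 808 and 963 after UIR. PTCKO measured 63.6, 62.0 and 54.1 after sham and 694, 670 and 620 after UIR. After UIR the lowest WT library remained above the highest PTCKO library. With UIR it rose by 3.41 on the log2 scale (SE 0.150, adjusted p = 3.2e-10) in WT and by 2.94 (SE 0.147, adjusted p = 1.5e-09) in PTCKO.

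Thbs1 and Thbs2 encode thrombospondins, of which thrombospondin-1 can activate latent TGF-beta and is also stored in platelets, while thrombospondin-2 binds and helps clear matrix metalloproteinases. Thbs1 (Entrez 21825, chromosome 2, 118111876 to 118127133) was 4.12, 4.49 and 2.13 FPKM in WT sham and 41.1, 42.0 and 47.1 in WT UIR. In PTCKO it was 4.97, 6.27 and 4.58 after sham and 16.1, 28.7 and 15.9 after UIR. The WT libraries after UIR all lay above 40 FPKM and the PTCKO libraries all below 30. On the log2 scale Thbs1 rose by 2.90 in WT (SE 0.256, adjusted p = 1.85e-07) and by 1.42 in PTCKO (SE 0.244, adjusted p = 0.000144).

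Thbs2 (Entrez 21826, chromosome 17, 14665500 to 14694262) was 0.49, 0.59 and 0.51 FPKM in WT sham and 23.6, 15.7 and 22.6 in WT UIR. In PTCKO it was 0.77, 0.75 and 0.61 after sham and 15.4, 21.2 and 13.6 after UIR. The UIR ranges of the genotypes overlapped. Thbs2 rose by 4.56 on the log2 scale (SE 0.206, adjusted p = 3.73e-10) in WT and by 4.04 (SE 0.1996, adjusted p = 1.37e-09) in PTCKO.

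Ccn1 and Ccn2, formerly Cyr61 and Ctgf, encode secreted CCN proteins that bind integrins and heparan sulphate, and CCN2 promotes fibrosis together with TGF-beta. Ccn1 (Entrez 16007, chromosome 3, 145646971 to 145649985) was 22.7, 61.3 and 33.9 FPKM in WT sham and 132, 154 and 153 in WT UIR. PTCKO libraries were at 41.6, 52.3 and 48.3 after sham and 80.7, 156 and 49.97 after UIR. Among the PTCKO UIR libraries, library 2 was at the WT UIR level and library 3 within the sham range. The log2 fold change was 1.19 in WT (SE 0.353, adjusted p = 0.00719). In PTCKO it was 0.48 (SE 0.350, 95% interval -0.27 to 1.24, adjusted p = 0.226), and without library 2 of PTCKO UIR it was -0.03 (adjusted p = 0.931). The PTCKO value was called under 5 alternatives, with log2 fold changes of 1.01 without scaling, 0.85 to 0.87 with limma on FPKM or TPM, and 0.77 without PTCKO UIR library 3.

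Ccn2 (Entrez 14219, chromosome 10, 24595442 to 24598683) was 33.0, 40.6 and 30.2 FPKM in WT sham and 222, 260 and 288 in WT UIR. In PTCKO it was 29.1, 30.4 and 26.9 after sham and 80.1, 157 and 71.8 after UIR. Every UIR library exceeded every sham library, and every PTCKO UIR library lay below every WT UIR library. Ccn2 rose by 2.18 on the log2 scale in WT (SE 0.232, adjusted p = 1.19e-06) and by 1.31 in PTCKO (SE 0.227, adjusted p = 0.000148).

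Eln encodes tropoelastin, the monomer of elastin (Entrez 13717, chromosome 5, 134702595 to 134747368). It went from 3.22, 3.51 and 2.71 FPKM to 93.7, 66.5 and 69.4 in WT. PTCKO libraries had 4.66, 3.12 and 3.69 after sham and 42.2, 60.3 and 32.8 after UIR, below the WT UIR range in all 3 libraries. Eln rose by 3.87 on the log2 scale (SE 0.222, adjusted p = 2.56e-09) in WT and by 3.04 (SE 0.215, adjusted p = 2.94e-08) in PTCKO.

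Fbn1 encodes fibrillin-1, which forms the microfibrils that scaffold elastin and hold latent TGF-beta (Entrez 14118, chromosome 2, 125300594 to 125506485). From 0.58, 0.59 and 0.37 FPKM after sham it went to 16.1, 14.3 and 15.1 after UIR in WT. Fbn1 in PTCKO was at 0.64, 0.71 and 0.59 after sham and 10.7, 12.1 and 10.4 after UIR. Replicates lay close together, and the genotypes did not overlap after UIR. With the smallest standard errors of the 10, the log2 fold change was 4.18 (SE 0.127, adjusted p = 5.92e-11) in WT and 3.58 (SE 0.124, adjusted p = 1.52e-10) in PTCKO.

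PTCKO against WT after UIR asks whether these genes differed with the genotype in the injured kidney. In the libraries labelled PTCKO 4 of the 10 genes were lower and 0 higher: Ccn2, Thbs1, Eln and Fbn1. Over all genes tested 4.50% were called lower, 9.30% higher and 13.8% in either direction, and the median log2 fold change was 0.0049, against -0.42 for the members. Ccn2 had a log2 fold change of -1.26 (SE 0.224, adjusted p = 0.00311), a level 2.40-fold lower, and was called lower under all 22 alternatives. Thbs1 was at -1.04 (SE 0.234, adjusted p = 0.011), or 2.06-fold lower, and missed the threshold only without PTCKO UIR library 3, at -0.91 (adjusted p = 0.0587). Eln was at -0.69 (SE 0.190, adjusted p = 0.0297) and Fbn1 at -0.39 (SE 0.101, adjusted p = 0.0231), or 1.61-fold and 1.31-fold lower. Each of these last calls was lost under 5 alternatives, including without PTCKO UIR library 1 or 3 and without WT UIR library 1 or 3, where Eln was at -0.64, -0.51, -0.51 and -0.73 and Fbn1 at -0.35, -0.36, -0.34 and -0.36, in that order.

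Of the other 6 genes, 5 had lower estimates that did not pass the test. Sparc was at -0.39 (95% interval -0.68 to -0.10, adjusted p = 0.0766), Postn at -0.45 (-0.83 to -0.08, adjusted p = 0.102) and Fn1 at -0.33 (-0.72 to 0.06, adjusted p = 0.249). In FPKM these 3 genes and the 4 called genes had every PTCKO UIR library below every WT UIR library, 7 of 10, a separation seen in this direction for 17.9% of all genes tested. The same 7 were separated in TMM-scaled CPM, a measure for which the share over all genes was not computed. Sparc was called under 7 alternatives and Postn under 5. Thbs2 was at -0.24 (-0.57 to 0.10, adjusted p = 0.335) and Ccn1 at -0.56 (-1.31 to 0.19, adjusted p = 0.31), the widest interval of the 10. Ccn1 was called lower without PTCKO UIR library 2, at -1.06 (adjusted p = 0.0293), and under none of the other 21 alternatives. Tnc was the only gene with a higher estimate, 0.11 (-0.33 to 0.56, adjusted p = 0.764), and under 5 alternatives the estimate was below 0, at -0.06 at the lowest.

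PTCKO UIR library 2 had the highest Ccn2, Thbs1, Eln, Ccn1, Fn1, Thbs2 and Fbn1 of its group and the lowest Postn and Tnc. It also had the lowest summed FPKM of 7 proximal tubule markers in that group, 878 against 1157 and 1499 in libraries 1 and 3, while WT UIR libraries summed to 273, 604 and 365. Without it the log2 fold change was -1.65 for Ccn2, -1.33 for Thbs1 and -0.90 for Eln, and 5 genes were called, with Ccn1 as the addition. Without PTCKO UIR library 3, 1 gene was called, Ccn2. Without PTCKO UIR library 1 or WT UIR library 1 or 3, 2 were called, Ccn2 and Thbs1.

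**Figure D2:**
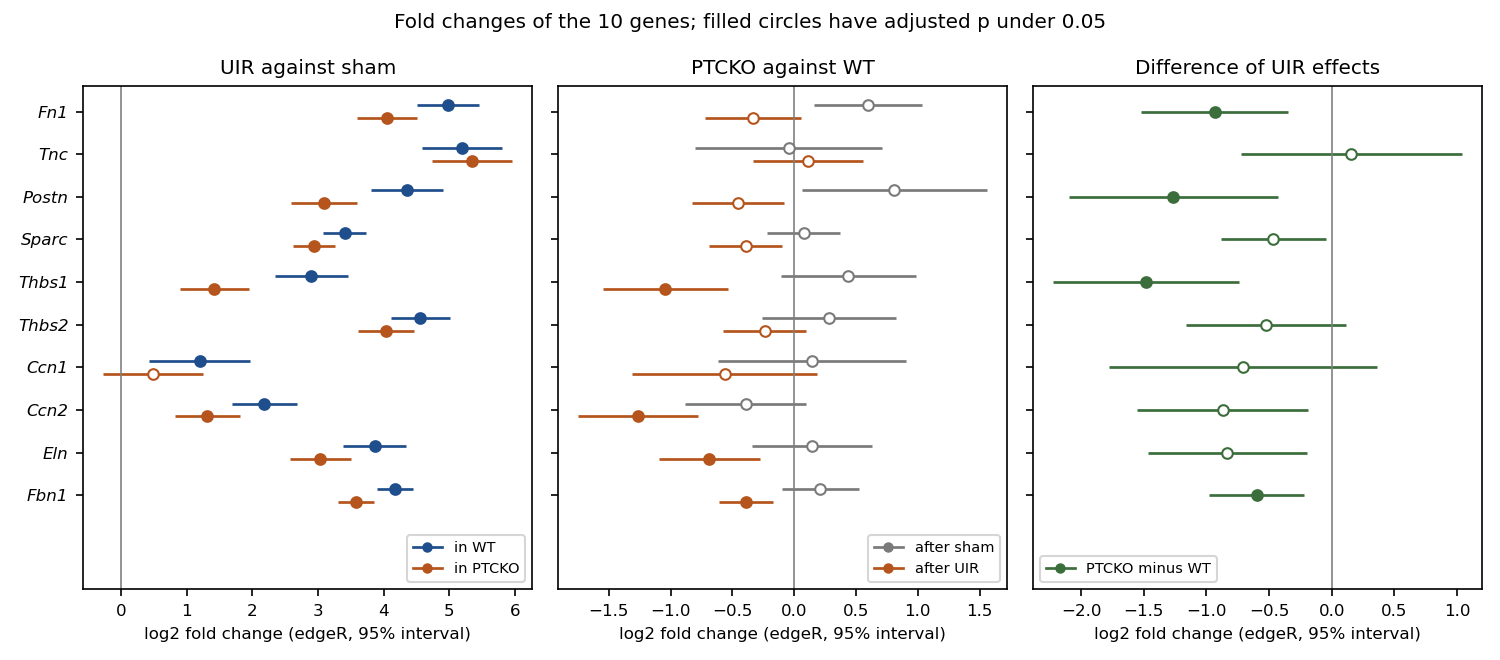
Log2 fold changes with 95% intervals from edgeR for the 10 genes, with filled circles where adjusted p was under 0.05: UIR against sham by genotype, PTCKO against WT by surgery, and the difference of the UIR effects. Ccn2, Thbs1, Eln and Fbn1 were called lower in PTCKO after UIR, and Thbs1, Postn, Fn1 and Fbn1 had a smaller UIR effect.

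**Figure D3:**
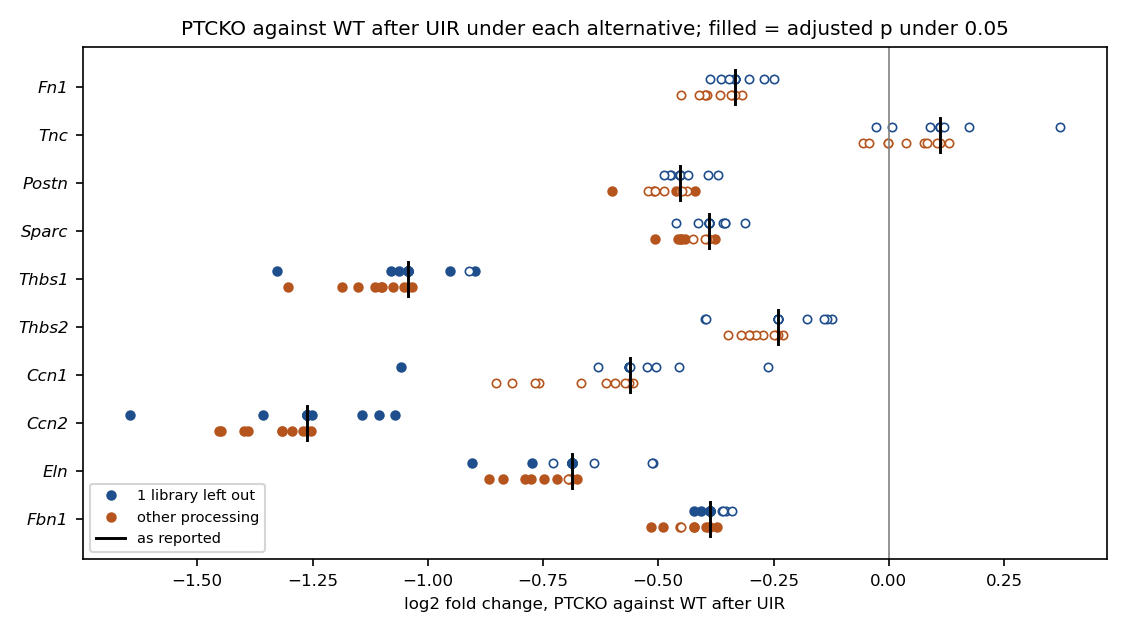
Log2 fold change of each gene for PTCKO against WT after UIR as reported (black bar), with 1 library left out (blue) and under other processing (orange); filled points had adjusted p under 0.05. Ccn2 stays between -1.65 and -1.07 and filled throughout, whereas Eln and Fbn1 lose the call without some UIR libraries.

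Markers of several cell types moved with these differences. In a bulk kidney sample, fewer cells of a type and less RNA per cell cannot be told apart. For reading the counts below, 4.50% of all genes tested were called lower in PTCKO after UIR and 9.30% higher. After UIR the 9 fibroblast markers summed to 767 to 1011 FPKM in WT and 627 to 689 in PTCKO, with 2 of 9 called lower in PTCKO. The 6 smooth muscle and myofibroblast markers summed to 504 to 609 against 320 to 392, with 4 of 6 lower. The 6 endothelial markers summed to 239 to 267 against 166 to 191, with 6 of 6 lower, and the 6 macrophage markers to 4553 to 7024 against 3169 to 4158, with 2 of 6 lower. The 6 platelet markers, of interest for Thbs1, summed to 27.7 to 33.8 against 20.4 to 26.4. Of the 4 tested, edgeR called 0 and 1, Pf4, had an unadjusted p under 0.05, and their median log2 fold change was -0.03. All 7 proximal tubule markers were higher in PTCKO after UIR. The 5 podocyte markers summed to 169 to 190 against 125 to 154, with 2 of 5 lower, and the 4 injured tubule markers to 869 to 889 against 898 to 1267, with 2 of 4 higher. No marker of these 8 lists was at 0 throughout a UIR group, and the part of cell composition in the results above was not tested.

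PTCKO against WT after sham gives the difference without injury. No gene of the 10 was called (0, edgeR), where 10.7% of all genes tested were called, 5.23% higher and 5.50% lower. At an unadjusted p under 0.05 there were 2, Fn1 at 0.60 (SE 0.203, adjusted p = 0.072) and Postn at 0.81 (SE 0.346, adjusted p = 0.139). In FPKM these genes, Thbs1 and Thbs2 had every PTCKO sham library above every WT sham library, 4 of 10, against 26.8% of all genes tested, and 0 had every one below, against 9.65%. In TMM-scaled CPM all 4 overlapped between the genotypes, and Ccn2 was the only one of the 10 that did not, PTCKO being lower. The share over all genes was not computed for that measure. DESeq2 called 1, Fn1 at 0.59 (adjusted p = 0.0257), and limma on log2(FPKM + 1) called 0. Fn1 was called under 6 of the 22 alternatives, among them without WT sham library 2 at 0.82 (adjusted p = 0.0363). Ccn2 was at -0.39 (95% interval -0.88 to 0.10, adjusted p = 0.263), with all 3 PTCKO sham libraries between 26.9 and 30.4 FPKM and WT sham between 30.2 and 40.6. For Ccn1 the WT sham libraries themselves spanned 22.7 to 61.3 FPKM and the interval of the difference ran from -0.61 to 0.91.

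The interaction tests whether the UIR effect itself differed between genotypes. It was called for 4 of the 10 genes, each with a smaller rise in the libraries labelled PTCKO: Thbs1 at -1.48 (SE 0.344, adjusted p = 0.0122), Postn at -1.26 (SE 0.386, adjusted p = 0.0359), Fn1 at -0.93 (SE 0.271, adjusted p = 0.0295) and Fbn1 at -0.60 (SE 0.176, adjusted p = 0.0306). Over all genes tested 7.08% were called lower, 14.4% higher and 21.5% in either direction, and the median log2 value was -0.0015, against -0.77 for the members. Thbs1 was called under all 21 alternatives of the interaction. Fn1 and Postn were called here but not for PTCKO against WT after UIR: their estimates were higher in PTCKO after sham and lower after UIR, and the interaction is the latter minus the former. Ccn2 and Eln, called after UIR, missed the threshold for the interaction at -0.87 (SE 0.316, adjusted p = 0.0653) and -0.83 (SE 0.294, adjusted p = 0.0596), and were called under 8 and 9 alternatives, Ccn2 with DESeq2 at -0.85 (adjusted p = 0.0307) among them. Without PTCKO UIR library 2, 7 genes were called, and without WT UIR library 1, PTCKO UIR library 1 or 3 or PTCKO sham library 2, 1 was, Thbs1. Without PTCKO sham library 1, 2 were, Thbs1 and Postn. Sparc at -0.47, Ccn1 at -0.71 and Thbs2 at -0.53 had lower estimates that did not pass, with 95% intervals of -0.89 to -0.05, -1.78 to 0.36 and -1.16 to 0.11. Tnc, at 0.16 (-0.73 to 1.04, adjusted p = 0.815), had an estimate that was below 0 under 5 alternatives. The comparisons share libraries, so their values for a gene are not independent of each other.

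The receptors of these proteins were described as a list of 17 genes, for integrin chains, CD36, CD47, LRP1, syndecans and stabilin-1. With UIR 12 rose and 4 fell in WT and likewise 12 and 4 in PTCKO, where 42.1% and 39.0% of all genes rose and 36.4% and 34.8% fell. Itga5, the alpha chain of the classical fibronectin receptor, rose by 3.01 on the log2 scale in WT (adjusted p = 3.94e-10) and by 2.18 in PTCKO (adjusted p = 8.83e-09). After UIR, 5 were lower in PTCKO and 1 higher, with a list median of -0.19, beside 4.50% lower and 9.30% higher over all genes. With 1 library left out in turn, 3 to 7 receptors were called. Itga5 after UIR stood at 22.5 ± 1.47 FPKM in WT and 12.9 ± 1.08 in PTCKO (SD, n = 3), a log2 fold change of -0.74 (SE 0.118, adjusted p = 0.00197). Stab1, the scavenger receptor that takes up SPARC, was 20.2 ± 2.19 and 10.4 ± 1.21 FPKM, at -0.90 (SE 0.123, adjusted p = 0.000948). Itgb6, an epithelial integrin chain that activates latent TGF-beta, was the member that was higher, 13.4 ± 2.48 against 21.9 ± 3.88 FPKM, at 0.78 (SE 0.161, adjusted p = 0.00658). These 3 calls held under all 22 alternatives. Itga8, whose product binds nephronectin, fibronectin and tenascin-C, was lower at -0.61 (SE 0.144, adjusted p = 0.0143) and lost the call under 3. For the interaction 5 receptors were called lower and 1 higher, Itgb6 at 1.07 (adjusted p = 0.00851). The shares over all genes tested were 7.08% lower and 14.4% higher.

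All 18 elastic fibre partners of Eln and Fbn1 rose with UIR in each genotype, with a median of 3.18 in WT and 3.10 in PTCKO. Of all genes tested, 42.1% rose in WT and 39.0% in PTCKO. Mfap2, a microfibril glycoprotein, rose by 4.01 in WT (adjusted p = 9.29e-11) and by 4.27 in PTCKO (adjusted p = 1.34e-10). Lox, the lysyl oxidase that cross-links elastin and collagen, rose by 5.18 in WT (adjusted p = 1.58e-10) and by 4.68 in PTCKO (adjusted p = 3.58e-10). Fbn2, the fetal fibrillin, was at 0.01 FPKM in all sham libraries and after UIR at 2.41 ± 0.210 in WT and 2.73 ± 0.507 in PTCKO (SD, n = 3). After UIR 5 of 18 were lower in PTCKO and 0 higher, with a median of -0.31, beside 4.50% lower and 9.30% higher over all genes. With 1 library left out in turn, 1 to 6 of the 18 were called. Mfap4, which binds tropoelastin and fibrillin, was 98.3, 65.4 and 81.0 FPKM for WT against 33.8, 43.9 and 29.9 for PTCKO. Its log2 fold change was -1.12 (SE 0.155, adjusted p = 0.000967), called under all 22 alternatives, and its interaction was -2.16 (SE 0.414, adjusted p = 0.00562). Fbln1, fibulin-1, was 74.8 ± 16.5 and 38.7 ± 11.5 FPKM, at -0.89 (SE 0.206, adjusted p = 0.0131), and lost the call under 3. The latent TGF-beta binding proteins Ltbp3 at -0.42 (adjusted p = 0.0187) and Ltbp4 at -0.49 (adjusted p = 0.0474) lost it under 3 and 11. The fifth was the cross-linking enzyme Loxl1 at -0.52 (adjusted p = 0.0487), named after its value was seen.

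The matricellular relatives comprised 21 genes outside the 10, such as other CCN, thrombospondin and SPARC family members, osteopontin and TGFBI, of which 17 were tested. With UIR 13 rose and 1 fell in WT, and 12 and 2 in PTCKO, so 14 of 17 were called in each, beside 78.6% and 73.8% of all genes. Tgfbi, an integrin ligand related to periostin, rose by 3.31 in WT (adjusted p = 7.1e-11) and by 3.81 in PTCKO (adjusted p = 5.28e-11). Spp1, osteopontin, had the highest FPKM of the list after UIR, with Igfbp7 above it after sham at 1133 ± 69.5 in WT and 1138 ± 76.8 in PTCKO (SD, n = 3). Spp1 went from 446 ± 8.45 to 5852 ± 278 FPKM in WT and from 444 ± 43.6 to 7890 ± 1680 in PTCKO. None was called between genotypes after UIR (0 of 17, edgeR), with a median of -0.17, beside 13.8% of all genes called in either direction. At an unadjusted p under 0.05 there were 3, DESeq2 called 1 and limma on log2(FPKM + 1) called 2, with 0 to 2 called across the alternatives. Spp1 was at 0.51 (adjusted p = 0.0556), against the direction of the 4 called members, and Fstl1, a follistatin-like relative of SPARC, at -0.30 (adjusted p = 0.0813). For the interaction 2 relatives were called lower and 1 higher, beside 7.08% lower and 14.4% higher over all genes. Tgfbi was the one called higher, at 0.50 (SE 0.145, adjusted p = 0.029), and lost the call under 10 alternatives. Sparcl1, another SPARC relative, was at -0.70 (SE 0.215, adjusted p = 0.0353) and lost it under 8. Smoc2, a SPARC relative that rose from 0.35 to 34.3 FPKM in WT and from 2.03 to 30.9 in PTCKO on average, was at -2.48 (SE 0.630, adjusted p = 0.0173) and lost it without WT sham library 3.

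Of 18 regulators in the TGF-beta, YAP/TEAD and SRF routes, 14 rose with UIR in WT and 0 fell, and 12 rose and 2 fell in PTCKO. That is 14 of 18 called in each genotype, near the 78.6% and 73.8% of all genes called in either direction. Tgfb1 rose by 2.71 in WT (adjusted p = 3.85e-10) and by 2.69 in PTCKO (adjusted p = 7.77e-10). Tead2, a TEAD factor, rose by 3.16 in WT (adjusted p = 2.21e-10) and by 3.01 in PTCKO (adjusted p = 5.14e-10). After UIR 3 were lower in PTCKO and 1 higher, with a median of -0.15, beside 4.50% lower and 9.30% higher over all genes. With 1 library left out in turn, 1 to 5 regulators were called. Tgfb3, a TGF-beta ligand, was 8.72 ± 1.24 FPKM for WT and 5.16 ± 0.508 for PTCKO (SD, n = 3), at -0.69 (SE 0.140, adjusted p = 0.0063), and was called under all 22 alternatives. Smad3 at 0.32 (adjusted p = 0.0406), Srf at -0.31 (adjusted p = 0.046) and Mrtfa, the SRF cofactor, at -0.31 (adjusted p = 0.0418) each lost the call under 12 or 13. For the interaction 2 regulators were called lower and 0 higher, beside 7.08% lower and 14.4% higher over all genes. Yap1 was at -0.43 (adjusted p = 0.026) and Tead4 at -1.67 (adjusted p = 0.0445), and they lost the call under 5 and 10 alternatives. With 1 library left out in turn, 0 to 3 were called.

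Of 20 published YAP/TEAD target genes other than Ccn1 and Ccn2, 19 were tested. With UIR 12 rose and 3 fell in WT, and 11 rose and 5 fell in PTCKO. The 15 and 16 of 19 called stand beside 78.6% and 73.8% of all genes tested. After UIR 3 were lower in PTCKO and 0 higher, with a median of -0.15, beside 4.50% lower and 9.30% higher over all genes. With 1 library left out in turn, 1 to 5 of these targets were called. Ankrd1, a muscle ankyrin repeat protein gene often read beside Ccn1 and Ccn2 as a YAP readout, was 44.7, 59.0 and 36.2 FPKM for WT against 19.7, 19.3 and 13.3 for PTCKO. It was at -1.36 (SE 0.241, adjusted p = 0.00314) and was called under all 22 alternatives. Beside it stand Ccn2 at -1.26 and Ccn1 at -0.56, of which Ccn1 was not called (edgeR adjusted p = 0.31). Lats2, a kinase that restrains YAP, was at -0.56 (adjusted p = 0.0162), and the RNA-binding protein gene Rbms3 at -0.52 (adjusted p = 0.00778), and they lost the call under 4 alternatives and 1. For the interaction 5 of 19 were called lower and 0 higher, with Lats2 at -0.86 (adjusted p = 0.0111). The shares over all genes tested were 7.08% lower and 14.4% higher.

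**Figure D4:**
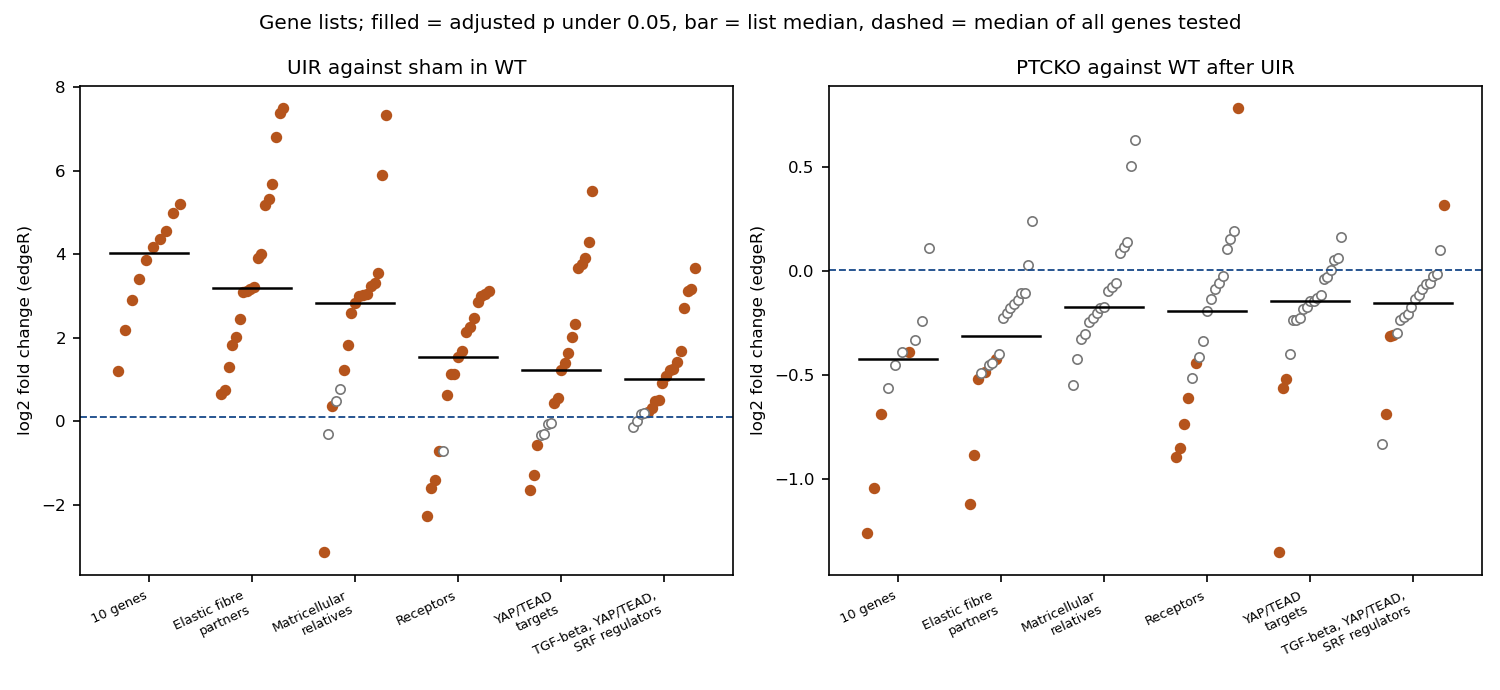
Log2 fold changes from edgeR of the 10 genes and of 5 lists of related genes, for UIR against sham in WT (left) and PTCKO against WT after UIR (right); filled points had adjusted p under 0.05, bars are list medians and the dashed line is the median of all genes tested. The 10 genes and the elastic fibre partners all rose with UIR in WT, and every list median is below 0 on the right.

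The genes whose pattern over the 12 libraries was most like each member were found by Euclidean distance between centred log2 values, among 12946 genes with a mean of at least 1 FPKM. The 12 libraries share their groups, so the large UIR effect sets most of the likeness, which is given as a description. Near Fn1 were Adcy7 (distance 0.643) and Col1a2 (0.835), and nearest were, for Tnc, Col1a1 (0.798), Htra3 and Lox, and for Postn Aurkb (0.916), Clec10a and Lyl1. Sparc was closest to Colec12 (0.373), Emp1 and Ctsc, Thbs2 to Fgl2 (0.556), Cyth4 and Cd300ld, Eln to Ano1 (0.517), Lhfpl2 and Plekho2, and Fbn1 to Sash3 (0.557), Adamts2 and Serping1. Thbs1 and Ccn2 shared Npy1r among their nearest 3, with Filip1l and Apcdd1 for Thbs1 and Kcnab1 and Pi16 for Ccn2. Ccn1 had the most distant neighbours, Pln (1.03), Cdc42ep3 and Arid3b. No member was among the nearest 3 genes of another. The closest member ranked 12 for Fn1, which was Thbs2, and 3120 for Ccn1, which was Ccn2.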

How the data were processed

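RNA-seq was measured in 12 mouse kidney libraries, 3 in each of 4 groups taken from the titles. Bowtie2, RSEM and DESeq2 and the build GRCm38.p6 are named, without versions, in the submitters' processing notes. The authors deposited 1 table that gives, for each library, a gene's expected count, TPM and FPKM. Its count columns, called read counts in the file headers, were taken as RSEM expected counts because 30.8% to 35.4% of a library's values were not whole (tolerance 1e-06). Among the 10 genes only Thbs2, Ccn2 and Eln had such values. By the names in the file headers, the deposited FPKM and TPM are the authors' values per length and per library size. Each count column mapped to a library and 0 were left over. Whether counting used strand is not stated by the labels.

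Expected counts were rounded, filtered with filterByExpr, scaled by TMM and fitted in edgeR 4.0.16 (R 4.3.3) with 4 group coefficients, which left 8 residual degrees of freedom. The two-sided quasi-likelihood p-values were adjusted over all 15322 genes (Benjamini-Hochberg), and called means an adjusted p under 0.05. There were 5 comparisons, UIR against sham in each genotype, PTCKO against WT after each operation, and their interaction. The 22 alternatives were DESeq2 1.42.0, no scaling, upper-quartile scaling, no filter, limma 3.58.1 on log2(FPKM + 1), log2(FPKM + 0.1) and log2(TPM + 1), limma-voom with quantile normalisation, a replicate block, only the groups compared (not for the interaction), and each library left out in turn. The script was tested on simulated data. A library's total was 15495163 to 19645743 expected counts.

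The members and lists were chosen with earlier results of these data known. The text names all 10 members, up to 4 genes per list with the smallest p in a comparison, and the 3 nearest genes per member, of which 1 is not reported here. Alternatives for the lists were added after seeing the data. Replicate libraries differed beyond sampling noise. Nothing says that the libraries came from separate mice, and the p-values cover only their spread, which may be technical. Proteins were not analysed here.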

Additional observations from a re-analysis of the deposited data

Results flagged for a closer look

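The UIR effect differed between genotypes by the interaction test for 4 of the 10 genes, beside 7.08% of all genes called lower and 14.4% higher. The difference, PTCKO minus WT on the log2 scale, was -1.48 for Thbs1, -1.26 for Postn, -0.93 for Fn1 and -0.60 for Fbn1 (edgeR, adjusted p = 0.0122, 0.0359, 0.0295 and 0.0306). All 3 PTCKO UIR libraries lay below all 3 WT UIR libraries in FPKM for each of the 4, as for 17.9% of all genes tested. Postn and Fn1 were not called for PTCKO against WT after UIR (edgeR adjusted p = 0.102 and 0.249). Their estimates for PTCKO against WT after sham were 0.81 and 0.60, and Postn had 5 to 11 counts in WT sham. With each library left out in turn the difference ranged from -1.78 to -1.23 for Thbs1, -1.57 to -0.86 for Postn, -1.15 to -0.70 for Fn1 and -0.70 to -0.43 for Fbn1. The call held in all of these fits for Thbs1 and was lost in 5 for Fn1, 6 for Fbn1 and 7 for Postn.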

How the results depend on the processing

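Every member's log2 fold change with UIR kept its direction in WT, and in PTCKO for the 9 called genes, under all 22 alternatives. With 1 library left out in turn the number of members called was 10 throughout for UIR in WT, 9 to 10 in PTCKO, 0 to 1 after sham, 1 to 5 for PTCKO against WT after UIR and 1 to 7 for the interaction. Over all genes it was 11523 to 12216, 10675 to 11494, 430 to 2183, 904 to 3321 and 1743 to 4565, around 12038, 11305, 1645, 2115 and 3288. After sham, 1 member in place of 0 was called with DESeq2, no scaling, limma on log2(FPKM + 0.1) or log2(TPM + 1), the replicate block and only the groups compared, where it was Ccn2. Genes called after sham were 2597 with TPM and 571 with voom. For the interaction 7 members were called without scaling and with limma on FPKM (both pseudocounts) or TPM.

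Estimates near 0 changed sign. For PTCKO against WT after sham, Tnc (-0.04) was 0.0805 without scaling, 0.0111 and 0.0767 with limma at pseudocounts 1 and 0.1 and 0.0666 with TPM. With 1 library left out it ranged from -0.3344 to 0.2341, Sparc from -0.0627 to 0.1957, Ccn1 from -0.1292 to 0.5899 and Eln from -0.0428 to 0.2677, and the sign turned without WT sham 1 or 2 or PTCKO sham 2 for Tnc (0.0289, 0.2341 and 0.0057), WT sham 3 for Sparc, WT sham 1 for Ccn1 and PTCKO sham 1 for Eln. After UIR, Tnc (0.11) was -0.0011, -0.0028, -0.0566 and -0.0426 with limma at either pseudocount, TPM and voom, and -0.0274 (without PTCKO UIR 3) to 0.3723 with 1 library left out. For the interaction Tnc (0.16) was -0.0441, -0.0122, -0.0794 and -0.1232 without scaling, with limma at either pseudocount and with TPM, and -0.1227 (without WT sham 2) to 0.4457 with 1 library left out. Ccn1 with UIR in PTCKO (0.48) ranged from -0.031 (without PTCKO UIR 2) to 0.765. The cause was not tested.

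Scaling moved the split of calls. The share of calls that were higher was 53.6% for UIR in WT, 52.8% in PTCKO, 48.8% after sham, 67.4% after UIR and 67.0% for the interaction, and without scaling 78.7%, 77.2%, 84.4%, 56.1% and 32.1%. The median of all genes was then 0.82, 0.57, 0.12, -0.06 and -0.20. With the replicate block, Fn1 after sham was called at 0.61, Postn lost its interaction call at -1.26 (adjusted p = 0.0516), and the interactions of Ccn2 (-0.94) and Eln (-0.84) were called. It changed no other call of a member. Same-numbered libraries correlated at -0.0893 to 0.0571 in their deviations from group means. With 3 libraries a group this cannot settle whether a number pairs animals, and the labels do not say. Postn in WT sham rested on 5 to 11 counts, which limits its fold changes.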

Other observations

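Some genes of the lists went against the rise of the 10 genes with UIR, and they are named after their values were seen. Among the receptors, Cd36, a scavenger receptor for thrombospondins and fatty acids, fell by 2.26 on the log2 scale in WT (adjusted p = 2.54e-06) and by 3.47 in PTCKO (adjusted p = 7.79e-08), from 137 ± 31.6 to 46.6 ± 9.54 FPKM and from 192 ± 37.9 to 24.8 ± 9.97 (SD, n = 3). Its interaction was -1.20 (adjusted p = 0.03). Itgb6 fell by 1.404 in WT (adjusted p = 2.91e-06), while in PTCKO it was at -0.34 (adjusted p = 0.0716). Spock3, a testican of the SPARC family, fell by 3.14 in WT (adjusted p = 6.2e-06) and by 2.70 in PTCKO (adjusted p = 1.55e-05). Of the YAP/TEAD targets, Nuak2, Igfbp3 and Dock5 fell in both genotypes, by 1.29, 1.64 and 0.58 in WT, and Amotl2 and Crim1 also fell in PTCKO, by 1.16 and 0.40. Tead1 and Wwtr1, which encodes the YAP partner TAZ, were the 2 regulators that fell in PTCKO, by 0.60 and 0.31. All values are from the edgeR test.

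After sham, where none of the 10 genes was called, 6 genes of the lists were, 5 of them higher in the libraries labelled PTCKO. Of those tested, these were 2 of 17 matricellular relatives, 1 of 17 receptors, 1 of 18 regulators and 2 of 19 YAP/TEAD targets. No elastic fibre partner was called (0 of 18). Over all genes tested 10.7% were called, 5.23% higher and 5.50% lower. Itgb8, an integrin chain, was at 1.36 (SE 0.300, adjusted p = 0.0195) and lost the call under 2 alternatives, and Smad3 was at 0.45 (SE 0.101, adjusted p = 0.0208) and lost it under 3. Smoc2 was at 2.40 (SE 0.550, adjusted p = 0.0222), lost the call under 4 and ranged from 1.07 to 2.96. Nuak2 at 0.62 (adjusted p = 0.0318) and Ptpn14 at 0.52 (adjusted p = 0.0449) lost it under 5 and 9. Tgfbi was the one called lower, at -0.41 (SE 0.112, adjusted p = 0.0367), and lost the call under 15 of 22.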
